A study of Rattus norvegicus with 7 samples.

Results

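Cytochrome P450 enzymes of families 1 to 4 were followed through single nuclei of the rat kidney. They were taken as every gene in the deposited feature tables whose symbol begins with Cyp, a family number from 1 to 4, a lower-case subfamily letter and a number. This gave 53 of 25399 genes. The study isolated nuclei from a central section of archived kidneys of HSRA rats at 4 weeks of age, a line in which some animals have 1 kidney and others 2. There were 3 libraries from 1-kidney animals and 4 from 2-kidney animals, and each library was taken as 1 animal. The extract protocol counts 3 animals of HSRA-S type and 4 of HSRA-C type. The labels name no other allele or agent, and strain, tissue and age were common to all 7. The section held cortex and medulla, in unstated proportion. Sex is not labelled, and UMIs of the Y-linked Kdm5d were counted in all 7 libraries, from 690 to 2777.

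P450 enzymes are heme proteins, mostly of the endoplasmic reticulum, that insert oxygen from O2 into lipids and foreign chemicals with electrons from Por, the P450 reductase. In the kidney, Cyp4a and Cyp4f enzymes hydroxylate the far end of fatty acids and make 20-HETE from arachidonic acid, a lipid that constricts small arteries and restrains sodium uptake in the tubule. Cyp2c and Cyp2j enzymes make epoxides of the same acid, which dilate vessels, and Cyp1 genes are targets of the aryl hydrocarbon receptor.

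The 31186 retained nuclei held 123594167 unique molecular identifiers (UMIs, counts of captured RNA molecules), with 2257 to 5942 nuclei and 5566753 to 27081936 UMIs per library. Clusters were named from marker genes into 15 classes, and 11 of them had at least 50 nuclei in every library. Proximal tubule had 7566 nuclei in 2 parts: a part with Slc7a13, a transporter of the straight tubule (5083 nuclei, clusters 3 and 5), and a part with Slc5a12, a lactate transporter of the convoluted tubule (2483 nuclei, cluster 4). Slc7a13 was at 3445 ± 731 CPM (a gene's UMIs scaled to a total of 1000000 in each library's nuclei of the class) in the first part and 132 ± 37.2 in the second, and Slc5a12 at 144 ± 60.8 and 1097 ± 320 (SD, n = 7 libraries). The 3 unnamed clusters held the remaining nuclei: cluster 0 with 3039 nuclei and 50315647 UMIs, more than the 29142447 of the named proximal tubule and with Slc34a1, the phosphate transporter of that segment, among its 10 leading genes, cluster 6 with 1914 nuclei led by haemoglobin transcripts, and cluster 19 with 387 nuclei. Of the barcodes, 166 occurred in more than 1 library, at most 14 between any pair of libraries. Of proximal tubule nuclei, the Slc7a13 part made up 84.0% ± 1.86 in the 3 libraries of 1-kidney animals and 62.3% ± 12.8 in the 4 of 2-kidney animals (exact permutation test, p = 0.0571, or 0.267 adjusted over 7 library measures; errors are SD). The groups did not overlap in that share. Within library set P1117, which holds all 3 of the 1-kidney libraries and 2-kidney replicates 1 and 2, the difference was 11.95 percentage points, against 21.7 over all libraries. The exact permutation p was then 0.2, the smallest that 3 against 2 libraries can give, as 0.0571 is for 3 against 4. Sums of UMIs cannot tell fewer nuclei of a kind within a class from less RNA per nucleus.

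Of the 53 members, 21 had at least 500 UMIs over the 7 libraries, 30 had 1 to 499, and Cyp2b15 and Cyp2g1 were at 0. The members had 281978 UMIs in all, of which Cyp4a1, Cyp4a2, Cyp4a3, Cyp4a8 and Cyp2c23 gave 82.6%. The 16 Cyp4 genes had 189119 UMIs, the 11 Cyp2c and Cyp2j genes 62024, the other 19 Cyp2 genes 29624, the 4 Cyp3a genes 622 and the 3 Cyp1 genes 589. These are counts, which set the precision of each gene, and levels of different genes are not compared here. Among the members with few counts were the main sex-dependent P450 genes of rat liver, Cyp2c11 with 23 and Cyp2c12 with 21 UMIs, and the phenobarbital-inducible Cyp2b1 with 9 and Cyp2b2 with 13. Of the 21 members with at least 500 UMIs, 12 had their highest pooled level in proximal tubule and 9 in another class. Among the 9, Cyp4a1 was highest in immune cells, Cyp4f6 and Cyp4f17 in mural cells and Cyp2s1 in urothelium. Those classes are small and lie outside the 11 above. Cyp4a1 was at 97.3 CPM in immune cells, below its mean of 178 in the Slc5a12 part. The levels below describe clusters of the same nuclei, so no test is given between classes, although the members were kept out of the genes that formed the clusters.

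**Figure D1:**
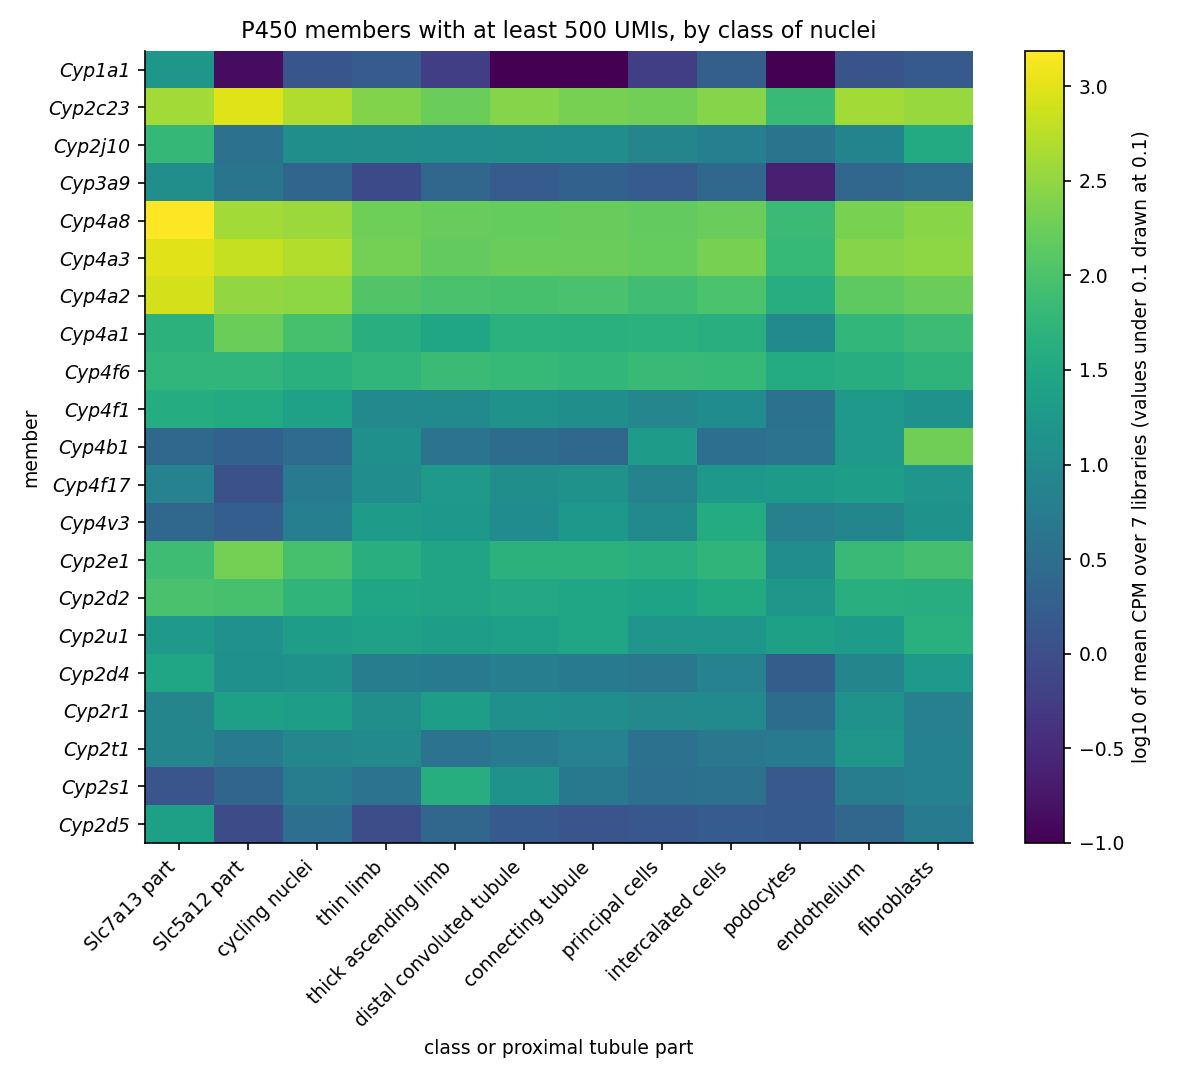
Mean CPM over 7 libraries (colour, log10 scale, values under 0.1 drawn at 0.1) of the 21 members with at least 500 UMIs (rows) in the 2 proximal tubule parts and 10 other classes (columns). Cyp4a8 is brightest in the Slc7a13 part, Cyp2c23 in the Slc5a12 part, Cyp4b1 in fibroblasts and Cyp2s1 in thick ascending limb; colours are read along a row.

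The fatty acid hydroxylases of the Cyp4a cluster differed in the part of the proximal tubule where they were highest. Cyp4a8 was at 1536 ± 360 CPM in the Slc7a13 part and 406 ± 145 in the Slc5a12 part (SD, n = 7), and the first was higher in all 7 libraries. Cyp4a2 was at 831 ± 108 and 328 ± 107 CPM, also higher in the Slc7a13 part in 7 of 7 libraries. Cyp4a3 had 996 ± 207 and 655 ± 110 CPM, again in that order in 7 of 7. Cyp4a1, a classical target of the lipid sensor PPAR alpha, had the opposite order, 49.0 ± 15.3 against 178 ± 49.0 CPM, in 7 of 7. The mean per-library log2 ratio of the Slc7a13 to the Slc5a12 part was 1.96 ± 0.30 for Cyp4a8, 1.40 ± 0.53 for Cyp4a2, 0.60 ± 0.27 for Cyp4a3 and −1.87 ± 0.17 for Cyp4a1 (SD, n = 7). Within the Slc7a13 part the same genes divided again. Cyp4a8 was at 1639 ± 402 CPM in cluster 3 and 1373 ± 356 in cluster 5, and Cyp4a2 (952 ± 149 against 670 ± 67.4) and Cyp4a3 (1116 ± 228 against 836 ± 140) were also higher in cluster 3 in 7 of 7 libraries.

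These genes are neighbours on chromosome 5, in the order Cyp4x1, Cyp4a8, Cyp4a2, Cyp4a2l1, Cyp4a3, Cyp4a1 and Cyp4b1 in RefSeq's GRCr8 assembly. Cyp4a2, Cyp4a3 and Cyp4a2l1 are close copies, and no source used here says how reads of near-identical copies were counted, so their separate values are uncertain to that extent. The promoter windows below, from RefSeq (GRCr8), run from 250 bases before to 50 bases after the annotated start. They are shown because the first 3 genes were higher in the Slc7a13 part and the last in the Slc5a12 part. Capitals mark AGGTCA, the core sequence bound by many nuclear receptors, and ATTAAC, the reverse complement of the HNF1 core GTTAAT. The Cyp4a8 window is chr5:133970177-133970476, Cyp4a2 chr5:134170859-134171158, Cyp4a3 chr5:134352187-134352486 and Cyp2c23 chr1:252863018-252863317, all on the minus strand and written 5′ to 3′ along the gene.
Cyp4a8: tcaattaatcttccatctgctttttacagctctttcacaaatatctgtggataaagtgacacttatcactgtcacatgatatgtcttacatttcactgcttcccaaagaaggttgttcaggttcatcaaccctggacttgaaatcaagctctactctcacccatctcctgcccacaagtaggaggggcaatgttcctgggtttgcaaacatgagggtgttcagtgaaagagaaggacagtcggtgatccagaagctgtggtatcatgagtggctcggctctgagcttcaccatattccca
Cyp4a2: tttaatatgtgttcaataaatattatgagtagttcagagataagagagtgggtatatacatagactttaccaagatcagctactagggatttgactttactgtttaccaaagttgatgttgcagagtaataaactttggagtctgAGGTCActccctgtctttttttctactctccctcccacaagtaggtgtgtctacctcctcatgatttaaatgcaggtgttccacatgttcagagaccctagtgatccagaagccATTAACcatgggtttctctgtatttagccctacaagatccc
Cyp4a3: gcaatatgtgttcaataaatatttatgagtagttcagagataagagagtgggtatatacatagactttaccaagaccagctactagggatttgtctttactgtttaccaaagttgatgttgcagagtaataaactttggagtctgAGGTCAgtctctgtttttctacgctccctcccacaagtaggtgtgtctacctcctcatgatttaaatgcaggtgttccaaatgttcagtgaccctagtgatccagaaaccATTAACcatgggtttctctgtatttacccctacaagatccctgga
Cyp2c23: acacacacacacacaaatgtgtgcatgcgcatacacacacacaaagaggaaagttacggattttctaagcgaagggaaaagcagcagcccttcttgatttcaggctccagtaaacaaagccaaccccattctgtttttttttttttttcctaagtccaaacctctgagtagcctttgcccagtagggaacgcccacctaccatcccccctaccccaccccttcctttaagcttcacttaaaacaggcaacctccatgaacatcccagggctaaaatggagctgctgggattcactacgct

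The Cyp4a2 and Cyp4a3 windows shared 284 bases, 94.7% of the 300 in each, and Cyp4a8 shared 189 bases with Cyp4a2 (63.0%) and 192 with Cyp4a3 (64.0%). The last 2 values are near those of unrelated windows, such as Cyp2c23 against Cyp4a2 at 58.0%. Both Cyp4a2 and Cyp4a3 held AGGTCA once, beginning at base −105 from the start, and GTTAAT once, on the other strand at base 10 in Cyp4a2 and base 6 in Cyp4a3. On either strand, AGGTCA was found in 16.2% and GTTAAT in 7.45% of the 33469 promoter windows of the table, and in 31.0% and 11.9% of the 42 members with 1 window there. The TATA box TATAAA (14.2% of all windows, 31.0% of the members') and the aryl hydrocarbon receptor core GCGTG (29.7% and 28.6%) were searched likewise. None of the 4 motifs was in the Cyp4a8 or the Cyp2c23 window. The table matched 46 members, 4 of them with more than 1 window. A match describes letters only, and matches of different motifs can share bases, as TATAAA and AGGTCA do in the Cyp2c7 window.

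Of the 6 named Cyp2c and Cyp2j genes, 3 were divided between the parts. The others of these subfamilies, among them Cyp2c24 with 227 UMIs, were not compared between the parts. Cyp2c23, the main epoxygenase of the rat kidney, was at 976 ± 71.3 CPM in the Slc5a12 part and 407 ± 75.4 in the Slc7a13 part, higher in the Slc5a12 part in 7 of 7 libraries. Within the Slc7a13 part it was at 501 ± 82.1 CPM in cluster 5 and 350 ± 69.9 in cluster 3, in that order in 7 of 7. Cyp2j10 had the reverse order, 62.3 ± 11.0 CPM in the Slc7a13 part and 3.76 ± 1.48 in the Slc5a12 part, and 79.0 ± 19.99 in cluster 3 against 40.8 ± 17.4 in cluster 5. Cyp2j4 had 127 UMIs in the Slc7a13 part and 1 in the Slc5a12 part. The other 3 named genes of these subfamilies were not divided, with at most 33 UMIs in either part: Cyp2c6v1 and Cyp2c13 were higher in the Slc7a13 part in 4 of 7 libraries and Cyp2j16 in 3 of 7.

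Among the enzymes of drug and toxicant metabolism, Cyp2e1, which oxidises ethanol and small solvents, was at 202 ± 51.9 CPM in the Slc5a12 part and 77.5 ± 29.8 in the Slc7a13 part, in that order in 7 of 7 libraries. Cyp2r1, a vitamin D 25-hydroxylase, was at 24.0 ± 9.50 and 7.94 ± 2.30 CPM, higher in the Slc5a12 part in 6 of 7. The other order was found for Cyp2d5 (0.895 ± 0.957 against 23.6 ± 8.73 CPM), Cyp2d4 (12.6 ± 3.43 against 29.9 ± 7.83), Cyp3a9 (4.29 ± 2.91 against 11.8 ± 3.91) and Cyp4f17 (1.08 ± 0.947 against 7.15 ± 2.30), each higher in the Slc7a13 part in 7 of 7. Cyp1a1, the standard reporter of aryl hydrocarbon receptor activity, had 344 UMIs in the Slc7a13 part and 3 in the Slc5a12 part, where 5 libraries were at 0. Its level in the Slc7a13 part varied widely between libraries. It was 9.29, 7.79 and 15.4 CPM in the 1-kidney libraries and 9.29, 25.1, 9.66 and 37.2 in 2-kidney libraries, so the 2 highest values were 2-kidney replicates 2 and 4 and the groups overlapped.

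Not every member was divided. Cyp4f6, a hydroxylase of leukotrienes and fatty acids, was at 56.7 ± 7.49 CPM in the Slc7a13 part and 57.2 ± 6.05 in the Slc5a12 part, and Cyp2d2 at 95.3 ± 16.9 and 93.4 ± 14.98. Cyp4f1 was at 39.1 ± 3.36 and 35.6 ± 3.42 CPM, higher in the Slc7a13 part in 6 of 7 libraries. These differences were within 2 SDs of the libraries. Over the libraries, the ranges of the 2 parts overlapped for Cyp4f6, Cyp2d2 and Cyp4f1. They also overlapped for Cyp4a3, Cyp2e1, Cyp2d4 and Cyp2r1, given above as higher in 1 part by the count of libraries. For comparison, Lrp2, the megalin gene of the whole proximal tubule, was at 4935 ± 341 and 4882 ± 641 CPM.

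**Figure D2:**
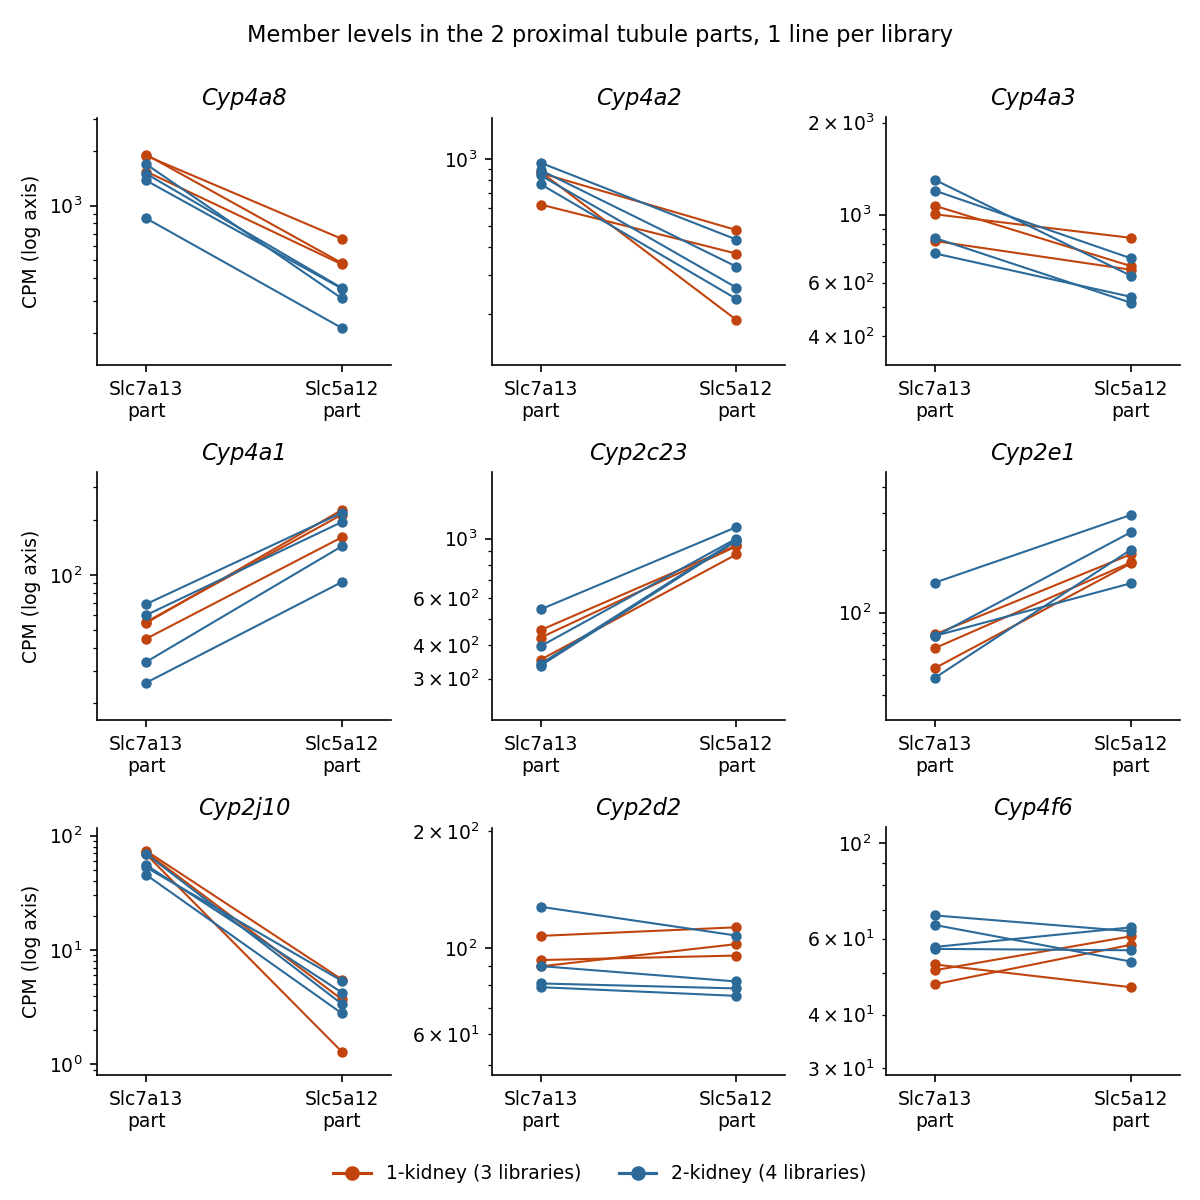
CPM on log axes of 9 members in the Slc7a13 and Slc5a12 parts, 1 line per library, 3 of 1-kidney (orange) and 4 of 2-kidney animals (blue). Every line falls from left to right for Cyp4a8, Cyp4a2, Cyp4a3 and Cyp2j10, every line rises for Cyp4a1, Cyp2c23 and Cyp2e1, and lines cross for Cyp2d2 and Cyp4f6.

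Across the 11 classes, Cyp4a8 was at 1167 ± 351 CPM in proximal tubule and 354 ± 131 in cycling nuclei, the next class, and Cyp4a3 (869 ± 126 and 497 ± 110) and Cyp4a2 (665 ± 84.9 and 299 ± 86.1) had the same order, each in 7 of 7 libraries. Cyp2c23 was at 595 ± 92.8 CPM in proximal tubule and 486 ± 88.9 in cycling nuclei, higher in 4 of 7 libraries, and Cyp4a1 at 88.4 ± 23.6 and 91.2 ± 31.9, so neither gene separated these 2 classes beyond the spread. Cyp2e1 (119 ± 36.9 and 93.6 ± 26.5 CPM, 6 of 7), Cyp2d2 (94.4 ± 16 and 55.6 ± 14.5, 7 of 7) and Cyp4f1 (38.0 ± 2.63 and 25.3 ± 9.46, 6 of 7) had the same 2 classes first. Cycling nuclei were named by cell cycle genes and also held Slc34a1, at 236 per 10000 UMIs. It was at 83.9 to 317 in proximal tubule clusters 3, 4 and 5. Which segments the cycling nuclei came from was not tested. Fibroblasts came second for Cyp2d4 (24.3 ± 6.43 and 17.6 ± 7.43 CPM, 6 of 7), Cyp2d5 (17.3 ± 8.41 and 5.41 ± 4.44, 7 of 7) and Cyp3a9 (9.45 ± 3.11 and 3.16 ± 3.64, 7 of 7), and intercalated cells for Cyp1a1 (10.8 ± 6.54 and 1.86 ± 1.64, 7 of 7).

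Outside the proximal tubule, single members stood out in single classes. Cyp4b1, which hydroxylates short fatty acids and activates furan toxins, was at 189 ± 57.6 CPM in fibroblasts (480 UMIs), with 19.97 ± 10.2 in principal cells, the next class, and 2.41 ± 1.19 in proximal tubule. Its fibroblast level was 224, 141 and 138 CPM in 1-kidney and 160, 216, 151 and 293 in 2-kidney libraries, and fibroblasts were the highest of the 11 classes in 7 of 7. Cyp2u1, a hydroxylase of long fatty acids, was at 45.7 ± 10.4 CPM in fibroblasts and 28.6 ± 14.6 in connecting tubule, and the first was higher in 6 of 7 libraries. Cyp2j10, high in the Slc7a13 part, was also at 35.6 ± 12.4 CPM in fibroblasts (96 UMIs).

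In the loop of Henle, Cyp2s1, an epithelial P450 induced through the aryl hydrocarbon receptor, was at 40.1 ± 16.9 CPM in thick ascending limb and 13.9 ± 8.22 in distal convoluted tubule, and thick ascending limb was the highest of the 11 classes in 7 of 7 libraries. Of its 2 clusters, cluster 16, whose nuclei carry Cldn16, a claudin of magnesium uptake, was at 84.2 ± 26.9 CPM and cluster 2 at 26.4 ± 11.9, again in 7 of 7. Cyp4f6 was at 72.4 ± 8.29 CPM in thick ascending limb and between 37.7 and 65.1 in the other 10 classes by mean. Cyp2r1 was at 21.9 ± 7.35 CPM in thick ascending limb and 21.9 ± 10.6 in cycling nuclei, which do not differ beyond their spread.

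Cyp4v3, the rat form of the fatty acid hydroxylase CYP4V2 of a human retinal dystrophy, was at 38.0 ± 10.3 CPM in intercalated cells, the acid-base cells of the collecting duct, and at 20.2 ± 12.4 in thin limb. Intercalated cells were highest in 6 of 7 libraries, and proximal tubule lowest by mean at 2.25 ± 0.842. In endothelium Cyp4f5 was at 20.8 ± 9.09 CPM (9.95 ± 3.20 in fibroblasts, the next class) and Cyp2t1 at 16.4 ± 6.62 (9.81 ± 4.81 in thin limb). Cyp4f17 had nearly level means in endothelium (21.5 ± 5.35 CPM), podocytes (19.01 ± 6.10) and thick ascending limb (17.4 ± 6.02). Its highest pooled level was 38.7 CPM in mural cells, a class of 210 nuclei, from 14 UMIs. Urothelium-like nuclei were 156 in all, with 0 in 1 library, and are given as pooled values: Cyp4f39, which makes omega-hydroxylated skin lipids, was at 94.5 CPM there against 4.74 in endothelium, Cyp2s1 at 61.3, and Cyp4v3 at 33.2 from 13 UMIs. The remaining named members had 107 to 384 UMIs. Cyp2b12 was at 10.1 ± 7.63 CPM in principal cells, Cyp2b21 at 2.90 ± 3.43 in intercalated cells, Cyp2b3 at 6.34 ± 12.5 in thin limb, and Cyp2c13 at 1.77 ± 1.22, Cyp2j16 at 2.86 ± 2.10 in thick ascending limb and Cyp2c6v1 at 2.84 ± 3.06 in connecting tubule. Cyp4f18, with 250 UMIs, was at 7.56 ± 11.2 CPM in fibroblasts. None of these 7 exceeded its second class by more than its SD. The other 22 members had 0 to 286 UMIs.

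Members of the proximal tubule were also counted in every other class, down to 71.8 ± 34.7 CPM of Cyp4a8 in podocytes. In droplet data, RNA free in the suspension enters all droplets, and its level was described with 15 transcripts fixed as proximal tubule markers. Across the 10 other classes, the level of Cyp4a8 relative to proximal tubule lay within the range of those 15 transcripts in 10 of 10, as did Cyp4a1, Cyp4a2, Cyp4a3, Cyp2c23, Cyp2e1, Cyp2d2, Cyp2d4, Cyp4f1 and Cyp2j10. In thick ascending limb, for example, Cyp4a8 was at 0.134 times its proximal tubule level and the markers at 0.113 to 0.528 times. The range also held members about as high in another class as in proximal tubule. Mean Cyp4a1 was at 91.2 CPM in cycling nuclei and 88.4 in proximal tubule, and pooled Cyp2j10 at 37.6 in fibroblasts and 39.9 in proximal tubule. A place within the range therefore does not tell where the RNA was made, which was not tested. Cyp4b1, Cyp4v3, Cyp4f5, Cyp2s1 and Cyp2j16 lay above that range in 10 of 10 classes.

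A second reference was cluster 6, whose median nucleus held 658.5 UMIs and whose leading genes were those of haemoglobin. Relative to cluster 6, the 15 markers were at 0.456 to 0.751 times in fibroblasts, where Cyp4a8 was at 0.538, Cyp2j10 at 1.91, Cyp2u1 at 3.38 and Cyp4b1 at 14.8 times. Cyp2j10 in fibroblasts thus lay above the markers by this reference and within their range by the first. In thick ascending limb the markers were at 0.230 to 0.380, Cyp4a8 at 0.319 and Cyp2s1 at 4.98 times. In intercalated cells Cyp4v3 was at 3.15 times against 0.291 to 0.631 for the markers, and in endothelium Cyp4f5 at 3.95 against 0.404 to 0.897. A level of Cyp4a8 outside the proximal tubule is therefore given below as measured, with no statement on which cells made the RNA.

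**Figure D3:**
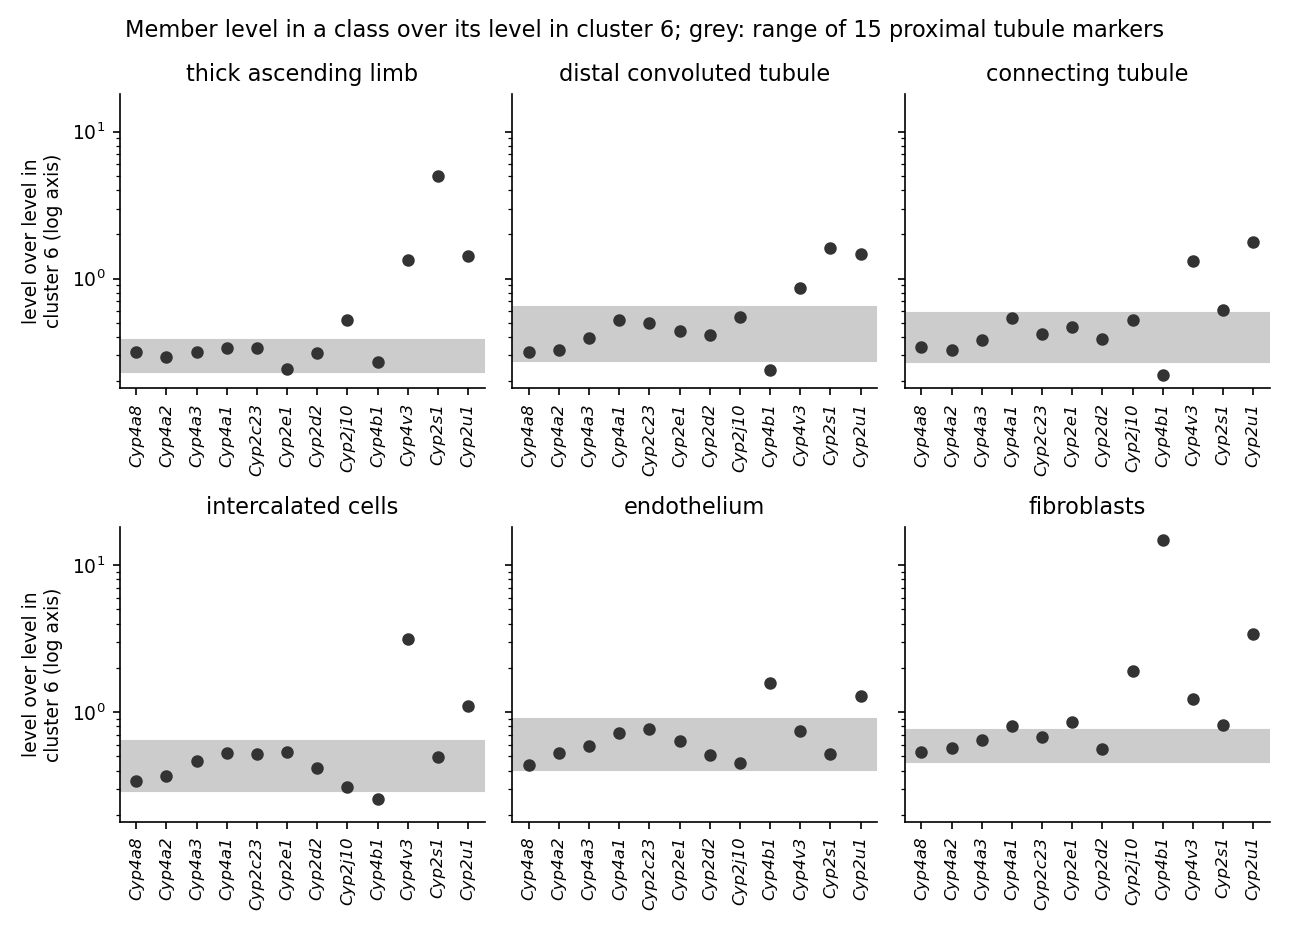
Pooled level of 12 members in 6 classes, each divided by the member's level in the haemoglobin-led cluster 6 (points, log axis), with the range of the same ratio over 15 proximal tubule transcripts (grey band). Cyp4a8 lies inside the band in all 6 classes, whereas Cyp4b1 in fibroblasts (14.8), Cyp2s1 in thick ascending limb (4.98) and Cyp4v3 in intercalated cells (3.15) lie above it.

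The comparison of 1-kidney with 2-kidney animals was made per class with edgeR's quasi-likelihood test on UMIs summed per library, and a gene was called at a Benjamini-Hochberg adjusted p under 0.05 over all genes tested. In proximal tubule no member was called, nor any of the 11125 genes tested (percent called 0); 24 of the 53 members passed the filter on low counts. At an unadjusted p under 0.05 there were 6 members, and 16.9% of all genes. DESeq2 called 2 members, Cyp4a8 and Cyp2j10, of the 11 it tested and 2.15 percent of genes. With edgeR no member and no gene was called in the Slc7a13 part either, where 1 of 22 members and 15.2% of the 10686 genes were at an unadjusted p under 0.05; DESeq2 called 0 members and 1.77 percent of genes. In the Slc5a12 part edgeR called 0 members of 11 and 0 of 7603 genes (1 member and 12.1% of genes at an unadjusted p under 0.05), and DESeq2 1 member and 0.914 percent of genes. In all retained nuclei edgeR called 0 of 35 members and 0 of 14928 genes (11 members and 20.7% of genes at an unadjusted p under 0.05), and DESeq2 0 members and 3.68 percent of genes. A wider proximal tubule, to which the 3 unnamed clusters were added because their Slc34a1 level was at least that of the lowest named one, gave 0 of 34 members and 0 of 14022 genes by edgeR (9 members and 17.8% of genes at an unadjusted p under 0.05), with a Cyp4a8 log2 fold of 0.58 ± 0.24 (edgeR adjusted p = 0.264). That lowest level, 83.9 per 10000 UMIs in cluster 3, was also exceeded outside the proximal tubule, as in endothelium at 149. The added clusters include the haemoglobin-led cluster 6. The share of cluster 5 in the Slc7a13 part overlapped between the groups. It was 80.6%, 68.4% and 48.9% in 1-kidney and 61.3%, 43.7%, 30.2% and 22.2% in 2-kidney libraries. The means were 66.0% ± 16 and 39.4% ± 17.1 (exact permutation test, p = 0.114, or 0.267 adjusted, errors are SD over 3 and 4 libraries). Within set P1117 the difference was 13.5 percentage points (exact permutation test, p = 0.4), against 26.6 over all libraries.

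In proximal tubule, Cyp4a8 was at 1576, 1330 and 1616 CPM in 1-kidney and 680, 1052, 901 and 1016 in 2-kidney libraries. The groups did not overlap, and the log2 fold of 1-kidney over 2-kidney was 0.70 ± 0.20 (SE, edgeR adjusted p = 0.24), which did not pass. In the Slc7a13 part it was at 1910, 1542 and 1883 CPM against 852, 1376, 1692 and 1500, where the groups overlapped (log2 0.38 ± 0.24, edgeR adjusted p = 0.454). Within cluster 3 alone the Cyp4a8 log2 fold was 0.40 ± 0.23 and within cluster 5 alone 0.57 ± 0.22 (edgeR adjusted p = 0.493 and 0.324). In the Slc5a12 part it was at 483, 476 and 657 against 212, 350, 309 and 353, with no overlap (log2 0.83 ± 0.21, edgeR adjusted p = 0.31). The difference of the fold between the parts was −0.38 ± 0.16 (edgeR adjusted p = 0.833) and did not pass.

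Of the other members in proximal tubule, Cyp2j10 was at 57.6, 58.0 and 53.9 CPM in 1-kidney and 33.9, 37.8, 31.6 and 33.8 in 2-kidney libraries. The groups lay apart, with a log2 fold of 0.70 ± 0.15 (edgeR adjusted p = 0.224). Within the Slc7a13 part, which held 1121 of its 1162 proximal tubule UMIs, they overlapped (log2 0.33 ± 0.18, edgeR adjusted p = 0.391). Cyp2d5 was at 23.3, 27.2 and 23.6 CPM against 20.4, 13.0, 5.93 and 7.62, with no overlap (log2 1.14 ± 0.35, edgeR adjusted p = 0.244), and lay apart in the Slc7a13 part as well (log2 0.81 ± 0.26, edgeR adjusted p = 0.25). Its 2 lowest values were those of set P1117B, and without that set the proximal tubule log2 fold was 0.60 (edgeR adjusted p = 0.485). Cyp2e1 was at 105, 77.5 and 90.7 CPM against 181, 96.6, 136 and 147, with overlap (log2 −0.64 ± 0.20, edgeR adjusted p = 0.246). Cyp2c23 was at 570, 528 and 466 CPM against 695, 540, 712 and 652, with overlap (log2 −0.34 ± 0.16, edgeR adjusted p = 0.306), and its log2 fold was 0.02 ± 0.19 in the Slc7a13 and −0.13 ± 0.17 in the Slc5a12 part. Cyp2r1 had a log2 fold of −0.63 ± 0.27 in proximal tubule and −0.30 ± 0.35 and −0.09 ± 0.37 in the parts (edgeR adjusted p = 0.286 to 0.934). For Cyp2j10, Cyp2d5, Cyp2c23 and Cyp2r1 the fold over the whole proximal tubule was larger in size than in the parts given here. For Cyp4a8 the fold in the Slc5a12 part was larger than over the whole. The share of the Slc7a13 part given above was higher in the 1-kidney libraries, by a difference that did not pass adjustment. Whether that share bears on these folds was not tested.

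The 2 other large Cyp4a members were close between the groups. Cyp4a2 was at 713, 573 and 779 CPM in proximal tubule of the 1-kidney and 685, 599, 567 and 737 of the 2-kidney libraries (log2 0.07 ± 0.17, edgeR adjusted p = 0.841). Cyp4a3 was at 978, 788 and 968 against 752, 681, 918 and 996 (log2 0.10 ± 0.19, edgeR adjusted p = 0.786). In both the groups overlapped. Cyp4f6 was at 53.0, 51.1 and 49.4 CPM against 61.4, 56.7, 64.8 and 60.1; the groups lay apart by a log2 fold of −0.27 ± 0.14 (edgeR adjusted p = 0.338). Cyp1a1 had a log2 fold of −0.56 ± 0.53 (edgeR adjusted p = 0.587).

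**Figure D4:**
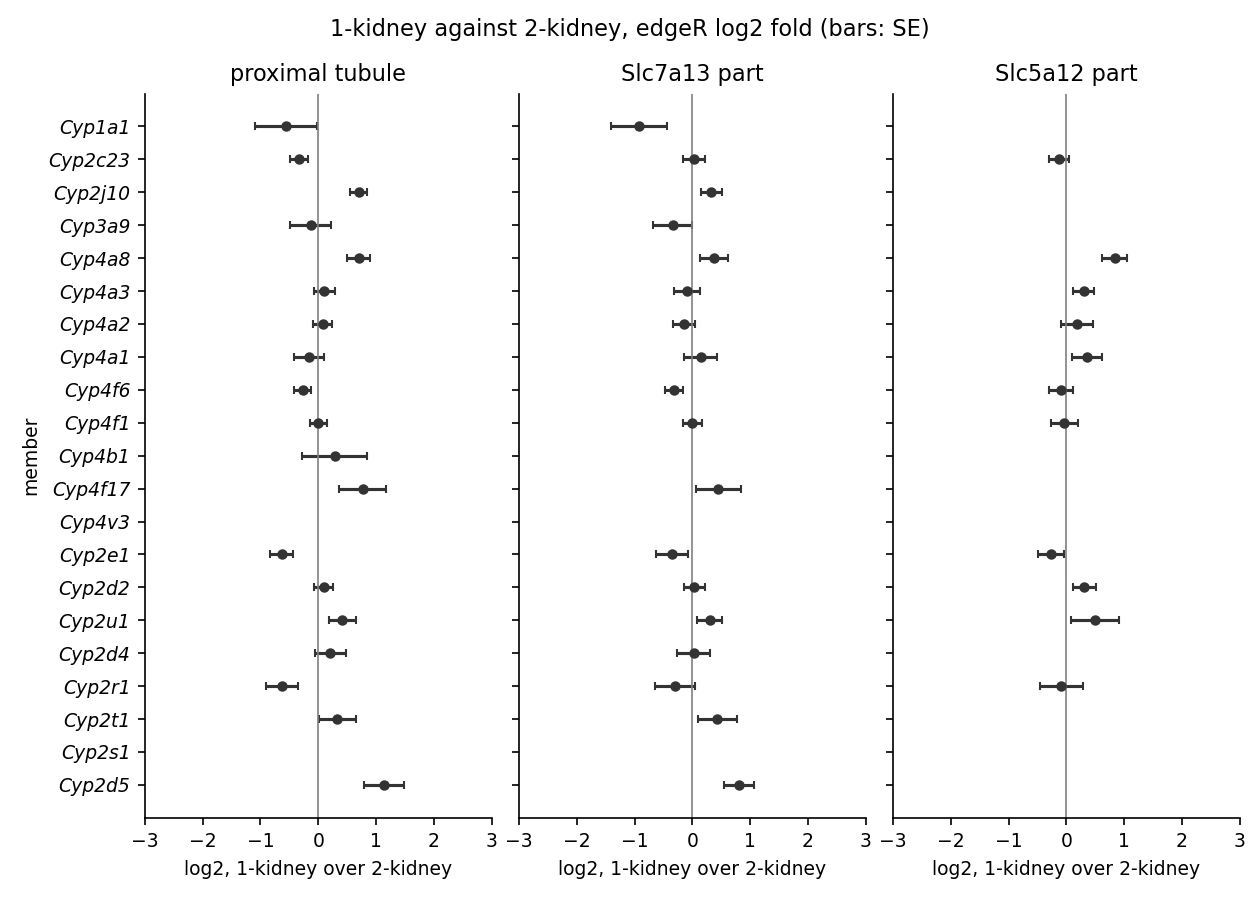
edgeR log2 fold of 1-kidney over 2-kidney libraries (points) with its SE (bars) for members with at least 500 UMIs that passed the filter on low counts, in proximal tubule and its 2 parts. No member in the plot passed the adjusted threshold; Cyp4a8 is at 0.70, 0.38 and 0.83 in the 3 panels.

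Outside the proximal tubule, Cyp4a8 was the member called, and it was higher in the 1-kidney libraries in 5 classes. In connecting tubule, where sodium and calcium uptake are adjusted, it was at 260.4, 254 and 224 CPM against 83.1, 95.2, 85.4 and 141 (log2 1.28 ± 0.21, edgeR adjusted p = 0.0111). In that class 1 of 9 tested members and 0.431 percent of all genes were called. In distal convoluted tubule it was at 215, 249.5 and 217 CPM against 80.5, 112, 102 and 119.7 (log2 1.13 ± 0.19, edgeR adjusted p = 0.0486; 1 of 9 members, 0.0548 percent of genes). In endothelium it was at 316, 331 and 317 against 110.5, 158, 149.7 and 161 (log2 1.17 ± 0.18, edgeR adjusted p = 0.0243; 1 of 14 members, 0.0724 percent of genes). In each of these classes every 1-kidney library was above every 2-kidney library.

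In fibroblasts Cyp4a8 was at 395, 483 and 328 CPM against 152, 208, 212 and 189.9 (log2 1.11 ± 0.22, edgeR adjusted p = 0.0211; 1 of 11 members, 2.12 percent of genes). In thick ascending limb it was at 174, 300.2 and 249 against 109.6, 105, 101 and 125 (log2 1.14 ± 0.20, edgeR adjusted p = 0.0441; 1 of 13 members, 0.0631 percent of genes). The groups lay apart here too. In the other classes no member was called by edgeR. In principal cells 0 percent of genes were called, with 3 of 11 members and 17.6% of genes at an unadjusted p under 0.05, and DESeq2 called 1 member and 4.13 percent of genes. In intercalated cells 0 percent were called, with 2 of 11 members and 13.5% of genes at that unadjusted p, and 1 member and 2.47 percent of genes by DESeq2. Cycling nuclei had 0.025 percent called, 1 of 11 members and 15.3% of genes at that unadjusted p, and 1 member and 1.43 percent by DESeq2. Podocytes had 0.0489 percent called, 1 of 6 members and 9.54% of genes at that unadjusted p, and 0 members and 0.0194 percent by DESeq2. Thin limb had 0.0346 percent called, 1 of 8 members and 8.19% of genes at that unadjusted p, and 0 members and 0.0253 percent by DESeq2. Cyp4a8 had a log2 fold of 1.34 ± 0.23 in principal cells (edgeR adjusted p = 0.0951), 1.15 ± 0.27 in podocytes (0.236), 0.94 ± 0.22 in intercalated cells (0.164), 0.86 ± 0.22 in cycling nuclei (0.153) and 0.71 ± 0.27 in thin limb (0.571). In cluster 6 it was at 561, 519 and 566 CPM against 297, 481, 280 and 432, also with no overlap (log2 0.56 ± 0.23, edgeR adjusted p = 0.589). There edgeR called 0 percent of genes, 1 of 8 members and 7.91% of genes were at an unadjusted p under 0.05; DESeq2 called 0 members and 0 percent of genes.

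Each of the 5 calls was lost under some of the alternatives. The connecting tubule call was lost without 1-kidney replicate 1 or 2 (edgeR adjusted p up to 0.116), and the fibroblast call without 1-kidney replicate 1 or 2 or with predicted doublets kept (up to 0.197). The endothelium call was lost without any 1-kidney replicate, without 2-kidney replicate 3 or with doublets kept (up to 0.174). The thick ascending limb call was lost without any 1-kidney replicate, without 2-kidney replicate 3, with the members among the clustering genes or with coarser clusters (up to 0.396). The distal convoluted tubule call was lost without any 1-kidney replicate, without 2-kidney replicate 2 or 3, and with the library set as a term (up to 0.312). The log2 fold of Cyp4a8 stayed above 0 under every alternative run in these classes, between 0.69 and 1.47. Without set P1117B it was 1.44 in connecting tubule, 1.19 in distal convoluted tubule, 1.30 in endothelium, 1.20 in fibroblasts and 1.18 in thick ascending limb (edgeR adjusted p = 0.00249 to 0.0349).

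Transcripts of the proximal tubule mostly had folds above 0 in the same classes, and also in the classes where Cyp4a8 was not called. Of the 15 fixed markers, 15 had a log2 fold above 0 in thick ascending limb (median 0.67, and −0.01 over all genes tested), 15 in fibroblasts (0.69, −0.02), 14 in endothelium (0.46, −0.01), 14 in distal convoluted tubule (0.46, 0.00) and 12 in connecting tubule (0.57, 0.00), against 6 in proximal tubule summed over its parts (−0.18, −0.01), 9 in the Slc7a13 part (0.07, −0.01) and 10 in the Slc5a12 part (0.13, 0.00). Without a Cyp4a8 call, the number was 15 in principal cells (0.77, −0.01), 14 in podocytes (0.64, 0.00) and 13 in intercalated cells (0.47, 0.00). Likewise it was 12 in cycling nuclei (0.45, −0.03) and 11 in thin limb (0.08, −0.01). Slc5a12 was called higher in connecting tubule (log2 1.16 ± 0.19, edgeR adjusted p = 0.0111), thick ascending limb (1.30 ± 0.20, 0.0441) and fibroblasts (1.29 ± 0.32, 0.0483), and Slc13a1, a sulfate transporter, in connecting tubule (0.90 ± 0.20, 0.0464). In connecting tubule Slc5a12 was at 454 ± 43.7 CPM in 1-kidney and 205 ± 39.3 in 2-kidney libraries. These marker calls were also lost without single libraries: both connecting tubule calls without 1-kidney replicate 1 or 2, and that of Slc13a1 also without 1-kidney replicate 3 or 2-kidney replicate 3 (edgeR adjusted p up to 0.116 for Slc5a12 and 0.348 for Slc13a1). The Slc5a12 call in thick ascending limb was lost without 1-kidney replicate 2 or 3 or 2-kidney replicate 3 (up to 0.321), and in fibroblasts without any 1-kidney replicate or 2-kidney replicate 1, 2 or 4 (up to 0.221). Their part in the Cyp4a8 calls was not tested.

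Whether the Cyp4a8 fold differed between classes was tested with both sums of each library in 1 model. The fold in proximal tubule minus that in thick ascending limb was −0.48 ± 0.21 (edgeR adjusted p = 0.532), and minus that in distal convoluted tubule −0.41 ± 0.18 (0.51). No member was called by edgeR against thick ascending limb (0.112 percent of genes called, 8 of 21 members and 8.37% of genes at an unadjusted p under 0.05), against distal convoluted tubule (0.02 percent called, 7 of 19 members and 8.70% of genes) or between the 2 parts (0.00934 percent called, 2 of 22 members and 5.38% of genes). DESeq2 was not run on these. Of the 15 proximal tubule markers, 15 were below 0 in the test against thick ascending limb (median −0.80, 3 called lower: Slc13a3, Slc6a19 and Slc4a4) and 14 in that against distal convoluted tubule (median −0.67, 0 called). The 3 calls were lost without 1-kidney replicate 2 or 3 or 2-kidney replicate 2, 3 or 4, and that of Slc4a4 also without 1-kidney replicate 1 (edgeR adjusted p up to 0.780).

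**Figure D5:**
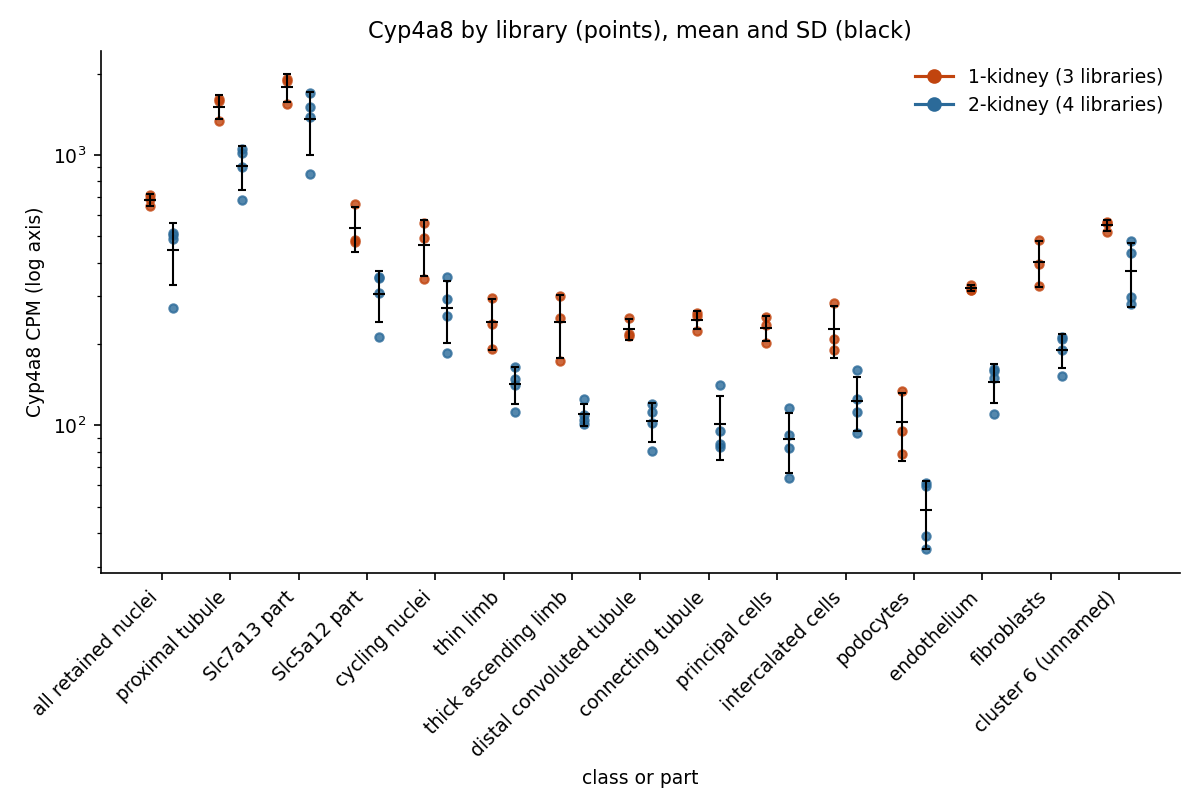
Cyp4a8 in CPM (log axis) in each of 3 1-kidney (orange) and 4 2-kidney libraries (blue), with mean and SD in black, in all retained nuclei, proximal tubule and its parts, the other classes and cluster 6. The 1-kidney points lie above all 2-kidney points except in the Slc7a13 part and cycling nuclei, and proximal tubule lies above all other classes.

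The members high outside the proximal tubule had no call. Cyp2s1 in thick ascending limb was at 19.7, 29.6 and 30.5 CPM in 1-kidney and 53.0, 35.6, 70.1 and 42.5 in 2-kidney libraries; the groups lay apart, with a log2 fold of −0.85 ± 0.31 (edgeR adjusted p = 0.247). Cyp2u1 in fibroblasts was at 32.0, 34.7 and 41.5 against 59.4, 55.2, 44.7 and 52.3, also apart (log2 −0.52 ± 0.32, edgeR adjusted p = 0.406). Cyp4b1 in fibroblasts (log2 −0.35 ± 0.28, edgeR adjusted p = 0.538) and Cyp4v3 in intercalated cells (−0.32 ± 0.33, 0.675) overlapped between the groups.

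The partners of these enzymes were read from fixed lists, all chosen with earlier results of these data known. In proximal tubule 0 genes of every list were called by edgeR. Of 14 tested genes of P450 electron transfer and heme synthesis, 5 had a fold above 0 (median log2 −0.12, −0.01 over all genes tested); Fech, which puts iron into heme, was at −0.67 ± 0.22, Cpox, an earlier step, at 0.53 ± 0.18 and the electron donor Cyb5a at −0.46 ± 0.16. Of 17 regulators of P450 genes, 6 had a fold above 0 (median −0.09), with Rxra, the partner of PPAR alpha and the xenobiotic receptors, at −0.85 ± 0.25, Ppargc1a at −0.49 ± 0.21 and the aryl hydrocarbon receptor repressor Ahrr at −1.14 ± 0.51. Of 15 PPAR alpha targets, 8 had a fold above 0 (median 0.06), with Pdk4, a brake on glucose oxidation, at 1.62 ± 0.31, Pex11a at 0.80 ± 0.28 and Hadha at 0.54 ± 0.18. Of 4 eicosanoid partners, 2 were above 0 (median 0.04), with the epoxide hydrolase Ephx2 at 0.10 ± 0.15, the phospholipase Pla2g4a at 0.13 ± 0.33 and Hpgd, which inactivates prostaglandins, at −0.59 ± 0.39. Of 8 P450 genes outside families 1 to 4, 1 was above 0 (median −0.36): Cyp27a1 at 0.48 ± 0.26, with Cyp39a1 at −0.66 ± 0.30 and Cyp51 at −0.65 ± 0.41. The edgeR adjusted p of the genes named here was 0.224 to 0.866. For the PPAR alpha targets, the 2 parts taken singly had higher medians than the whole proximal tubule. In the Slc7a13 part 7 of 13 had a fold above 0 (median 0.33), and in the Slc5a12 part 12 of 14 (0.38). Over all retained nuclei it was 12 of 15 (0.39). In each of these, 0 PPAR alpha targets were called by edgeR. Outside the proximal tubule the median was also above 0 in every tested class. It ran from 0.19 in distal convoluted tubule (7 of 9 above 0) to 0.74 in fibroblasts (8 of 9).

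Elsewhere 4 genes of these lists were called. Por, the reductase itself, was higher in connecting tubule of the 1-kidney libraries (log2 1.06 ± 0.20, edgeR adjusted p = 0.019), Pdk4 in distal convoluted tubule (2.04 ± 0.36, 0.0486) and the fatty acid activating Acsl1 in fibroblasts (0.97 ± 0.25, 0.0493). Por was not called in the other tested classes outside the proximal tubule, but its log2 fold was above 0 in each. It ran from 0.42 ± 0.26 in thin limb to 1.14 ± 0.25 in podocytes (edgeR adjusted p = 0.101 to 0.725 over these classes). Pla2g4a, which frees arachidonic acid, was lower in fibroblasts (−1.31 ± 0.33, 0.0483). None of these 4 calls held without each library in turn. The Por call was lost without any 1-kidney replicate or 2-kidney replicate 3 (edgeR adjusted p up to 0.179 over all alternatives), and the Pdk4 call without any 1-kidney replicate or 2-kidney replicate 2 or 3 (up to 0.312). The Acsl1 call was lost without any 1-kidney replicate or 2-kidney replicate 2, 3 or 4 (up to 0.168), and the Pla2g4a call without any 1-kidney replicate or 2-kidney replicate 1 or 2 (up to 0.298). Their log2 folds kept their signs. The share of all genes called in these classes is given above.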

How the data were processed

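Single-nucleus RNA was deposited by the authors as gene by barcode tables of raw UMI counts for 7 libraries. They were made with Cell Ranger 7.0, per the submitters' processing notes. Genome build and annotation: not given in the sources used here. Of 37048 deposited barcodes, those with under 200 genes or over 5% mitochondrial UMIs were left out. Doublet scores followed; the automatic threshold marked 1 to 6 barcodes per library, so the highest scores were removed at 0.8% per 1000 barcodes (2.59% to 6.40% per library), leaving 31186 nuclei. With scanpy 1.11.5 and leidenalg 0.10.2, 2000 variable genes without the members, 30 components, 20 neighbours and resolution 1 gave 23 clusters, of which 20 were named from marker lists.

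CPM is a member's UMIs scaled to 1000000 UMIs of the class in a library. UMIs were summed per library and class (at least 50 nuclei in each) and tested with edgeR 4.0.16 (filterByExpr, TMM factors, quasi-likelihood test, R 4.3.3), adjusted after Benjamini and Hochberg over all genes. DESeq2 1.42.0 was an alternative. Interactions were tested with the library as a block, and library measures with exact permutation tests, two-sided by doubling, in which 3 against 4 libraries cannot give a p below 0.0571. On simulated counts with 200 changed genes, the test recovered 91% of 4-fold and 49% of 2-fold changes in proximal tubule. In thin limb, the lowest, it recovered 81% and 20%. These counts were drawn for each gene on its own, with no effect of library set, which the data may hold. Where labels do not say that libraries are separate animals, p-values measure only the spread between libraries. Library set P1117B holds 2-kidney replicates 3 and 4 only.

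The members and lists were chosen with earlier results of these data known. Members with at least 500 UMIs were described singly; those with fewer were named where they passed a test, led a group of related enzymes or were highest outside proximal tubule with at least 100 UMIs. From other lists, called genes, or else the 3 of smallest p, were named. Promoter windows came from RefSeq (GRCr8) and were aligned with Biopython 1.88. Alternatives were RLE factors, DESeq2, no filter, other doublet and clustering choices, a library set term and leaving out libraries.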

Additional observations from a re-analysis of the deposited data

Results flagged for a closer look

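Among the 2-kidney libraries, 3 of 71 groups of 4 values held a library whose gap to the nearest other was above Dixon's 95% critical value; chance alone marks about 1 in 20 such groups. Cyp2c23 in the Slc5a12 part was at 1105 CPM in 2-kidney replicate 1, and the other 3 libraries were at 981 to 1001. In mural cells Cyp4f6 was at 135.9 CPM in 2-kidney replicate 3, against 36.2 to 50.4 in the others, from a class with 210 nuclei in all. Cyp4b1 in the Slc7a13 part was at 5.68 CPM in 2-kidney replicate 1, against 0.931 to 1.55 in the others; the part held 40 Cyp4b1 UMIs over the 7 libraries.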

How the results depend on the processing

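No paired analysis was possible because replicate numbers follow accession order and pair no libraries. Of 1457 alternative values of 103 member effects, 1416 kept their side of the threshold and were not counted as reversed. Another 22 lost a call, 14 gained one and 5 reversed. A reversal was counted only where the reported effect was larger than its SE. The 35 effects no larger than their SE were given no direction. Of these, 29 changed sign in 104 values, which are not among the 5 reversals. The cause was not tested in any case. With DESeq2, members called were 2 in proximal tubule, and 1 each in the Slc5a12 part, cycling nuclei, intercalated cells and principal cells (shares of all genes in the report). With no filter on low counts they were 2 in fibroblasts (1.91% of all genes called) and in thick ascending limb (1.03%), and 1 each in cycling nuclei (1.33%), intercalated cells (0.701%), podocytes (0.310%) and principal cells (2.38%). Without set P1117B they were 2 in fibroblasts (3.37%); with the library set as a term 2 in fibroblasts (2.52%), 1 in cycling nuclei (0.138%) and 0 in distal convoluted tubule. With predicted doublets kept they were 0 in endothelium and fibroblasts, and in thick ascending limb 0 with members among the variable genes and 0 at Leiden resolution 0.5.

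Leaving out 1 library gave 0 to 1 members called in connecting tubule, distal convoluted tubule, endothelium, fibroblasts (calls lost as the report names), cycling nuclei and podocytes (gained without 2-kidney replicate 1), principal cells (gained without 2-kidney replicate 2) and the interaction of proximal with distal convoluted tubule (Cyp2e1, without 2-kidney replicate 1 or 2), and 0 to 2 in thick ascending limb (Cyp4a2 added without 2-kidney replicate 1). With members among the variable genes, the log2 ratio of Cyp4a1 in the Slc7a13 over the Slc5a12 part was −2.09. Reversed were Cyp2c23 in proximal tubule at Leiden resolution 0.5 (0.0112, where proximal tubule held only the Slc7a13 part, which moved 6 levels), Cyp2c6v1 in all nuclei without set P1117B (−0.14) and with the set term (−0.14), Cyp2u1 in the Slc5a12 part likewise (−0.0402 and −0.0398), and the difference in mitochondrial percent of UMIs without set P1117B (−0.214) and with 1 library left out (−0.0178 to 0.310, below 0 without 1-kidney replicate 2 or 2-kidney replicate 4, the latter −0.0174).

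Genes called over all alternatives ranged from 0 to 506 in all nuclei, 0 to 144 in proximal tubule, 0 to 198 in the Slc7a13 part, 0 to 143 in the Slc5a12 part, 0 to 228 in connecting tubule (29 as reported), 0 to 637 in cycling nuclei (2), 0 to 230 in distal convoluted tubule (4), 0 to 177 in endothelium (6), 1 to 316 in fibroblasts (144), 0 to 115 in intercalated cells, 0 to 146 in podocytes (3), 0 to 395 in principal cells, 0 to 176 in thick ascending limb (5), 0 to 31 in thin limb (2) and 0 to 9 in cluster 6. In the interactions they were 0 to 8 between the parts (1), 0 to 121 against thick ascending limb (12) and 0 to 79 against distal convoluted tubule (2). Without a value were thin limb with doublets kept or members among the variable genes, and the Slc5a12 part, distal convoluted tubule, fibroblasts and thin limb at Leiden resolution 0.5. Depth limits the members under 500 UMIs, and only 24 of the 53 were tested in proximal tubule.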
